A study of Mus musculus with 12 samples.

Results

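The genes described here encode 9 C-type lectin receptors of mouse myeloid cells: Clec4e, Clec4d, Clec4n, Clec7a, Clec5a, Clec12a, Clec4a2, Clec4a1 and Clec4a3. They were chosen by gene symbol, with earlier results of these data known, and all 9 were found among the 13715 genes of the deposited count table. The data are RNA-seq of bone marrow-derived macrophages of mice, in 12 libraries that form 4 groups of 3. The KO IL-4 group came from LysMCre Stk11 fl/fl mice, with 20 ng/ml IL-4 added for 24 h, and the WT IL-4 group came from WT mice with the same IL-4 treatment. The KO mock and WT mock groups were the corresponding cultures without IL-4, and every culture had M-CSF at 40 ng/ml for 7 days. In the KO mice Cre is driven by the lysozyme M (Lyz2) locus, which is active in myeloid cells, and the floxed gene Stk11 encodes the kinase LKB1. The WT mice are not said to carry Cre or the floxed allele, and the ages and sexes of the animals are not given. Nothing in the labels says that libraries of a group came from separate animals, so p-values measure the spread between these libraries, which may be technical.

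C-type lectin receptors bind sugars, lipids and other ligands on fungi, mycobacteria and dying cells. Activating members carry or recruit an immunoreceptor tyrosine-based activation motif, through the adaptors FcRγ (Fcer1g) or DAP12 (Tyrobp) or through a motif of their own. The kinase Syk binds this motif and signals through Card9, Bcl10 and Malt1 to NF-kB, whereas inhibitory members carry a motif that recruits the phosphatases SHP-1 (Ptpn6) and SHP-2 (Ptpn11). IL-4 acts on macrophages through the transcription factor STAT6.

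All 9 genes lie on mouse chromosome 6 at 3 places, by the coordinates of the deposited table (mm10). Clec4a1, Clec4a3, Clec4a2, Clec4n, Clec4d and Clec4e lie in this order between 122921848 and 123289870. Clec12a and Clec7a lie between 129342691 and 129472779, and Clec5a lies alone between 40574894 and 40585821. No exon of the 9 genes overlapped an exon of another gene in the GENCODE M21 annotation of this build. How reads with several matches were counted and whether strand was used are not given, and 6.83% of the 50-base windows of Clec4a2 transcripts were also found in other genes, mostly Clec4a4. For the other members this share was at most 0.69%.

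The sequence before the start site is shown for the 7 genes that were called the same way with IL-4 in both genotypes. Clec7a, Clec4a1, Clec5a, Clec4a3 and Clec4a2 rose, whereas Clec4d and Clec12a fell. Each line gives the 250 bases before the RefSeq start site (GRCm38.p6), 5′ to 3′ on the gene's own strand. Capitals mark letters found by a search of both strands for a STAT6 site (TTC and GAA with any 4 bases between them), a PU.1 site (GAGGAAG, or CTTCCTC on the other strand), a C/EBP site (TTGCNNAA), an AP-1 site (TGANTCA) and the core of the cAMP response element (TGACG).
Clec7a, chr6:129472780-129473029, minus strand: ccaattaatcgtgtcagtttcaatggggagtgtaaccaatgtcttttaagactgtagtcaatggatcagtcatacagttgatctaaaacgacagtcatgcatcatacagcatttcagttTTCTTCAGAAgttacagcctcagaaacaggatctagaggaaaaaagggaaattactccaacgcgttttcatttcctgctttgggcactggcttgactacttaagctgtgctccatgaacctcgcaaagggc
Clec4a1, chr6:122921598-122921847, plus strand: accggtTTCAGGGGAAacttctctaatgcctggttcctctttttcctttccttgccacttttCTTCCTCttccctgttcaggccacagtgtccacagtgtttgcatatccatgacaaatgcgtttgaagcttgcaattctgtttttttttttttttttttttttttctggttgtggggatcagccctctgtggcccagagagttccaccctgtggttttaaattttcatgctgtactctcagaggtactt
Clec5a, chr6:40585806-40586055, minus strand: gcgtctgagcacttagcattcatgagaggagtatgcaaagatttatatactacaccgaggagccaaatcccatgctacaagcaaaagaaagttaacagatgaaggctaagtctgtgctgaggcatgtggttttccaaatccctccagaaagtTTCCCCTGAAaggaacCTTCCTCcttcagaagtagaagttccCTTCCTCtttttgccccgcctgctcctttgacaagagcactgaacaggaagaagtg
Clec4a3, chr6:122952265-122952514, plus strand: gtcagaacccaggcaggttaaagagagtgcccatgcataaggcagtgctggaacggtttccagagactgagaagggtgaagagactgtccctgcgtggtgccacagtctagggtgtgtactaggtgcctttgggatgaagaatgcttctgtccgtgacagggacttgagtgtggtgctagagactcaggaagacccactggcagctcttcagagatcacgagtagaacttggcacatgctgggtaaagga
Clec4a2, chr6:123122440-123122689, plus strand: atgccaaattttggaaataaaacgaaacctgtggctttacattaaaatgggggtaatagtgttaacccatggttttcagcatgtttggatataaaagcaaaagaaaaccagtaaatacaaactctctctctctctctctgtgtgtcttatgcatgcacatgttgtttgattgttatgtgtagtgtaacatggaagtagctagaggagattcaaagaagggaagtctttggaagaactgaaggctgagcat
Clec4d, chr6:123261857-123262106, plus strand: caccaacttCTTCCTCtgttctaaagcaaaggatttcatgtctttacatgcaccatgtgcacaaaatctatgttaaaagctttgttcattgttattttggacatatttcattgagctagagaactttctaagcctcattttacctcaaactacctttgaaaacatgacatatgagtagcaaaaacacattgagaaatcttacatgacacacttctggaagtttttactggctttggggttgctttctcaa
Clec12a, chr6:129349994-129350243, plus strand: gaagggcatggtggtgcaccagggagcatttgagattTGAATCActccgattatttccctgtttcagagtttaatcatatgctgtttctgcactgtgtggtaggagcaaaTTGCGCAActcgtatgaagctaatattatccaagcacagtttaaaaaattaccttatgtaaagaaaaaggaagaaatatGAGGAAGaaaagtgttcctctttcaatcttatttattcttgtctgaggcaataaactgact

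Promoters were given for 8 of the 9 members. The STAT6 letters were found in 3 of these 8 and in 5.9% of 27025 mouse promoters of the same length. In Clec7a they start at position -131, in Clec4a1 at -244 and in Clec5a at -98, counted from the start site. The other genes that rose, Clec4a3 and Clec4a2, held none of the 5 capitalised motifs, so 2 of 5 rising genes lacked the STAT6 letters. The RefSeq starts used for Clec4a2, Clec12a and Clec5a lie inside the gene intervals of the table, that of Clec5a close to the edge. The PU.1 letters were found in 4 of 8, namely Clec4a1, Clec4d, Clec5a and Clec12a, against 10.4% of all promoters. The C/EBP letters were in Clec4e and Clec12a (9.6% of all promoters), and the AP-1 letters in Clec12a (6.9%). No member held the TGACG letters (17.9% of all promoters) or an NF-kB site (4.0%; GGG, any 2 bases, TT, any base, CC), and 4 of 8 held the E-box letters CANGTG (39.4%), which are not capitalised. The STAT6 and AP-1 letters read the same on both strands, the C/EBP match of Clec12a was found on both, and no matches to different motifs overlapped. A match is a description of the letters and does not show that a factor binds there.

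The library totals ran from 30651627 to 39136822 counts. Stk11 lay between 3.87 and 9.24 CPM (counts scaled to a common library total, with TMM factors) in the KO libraries, against 37.7 to 54.4 CPM in the WT libraries. The Stk11 log2 fold change of KO over WT was -2.55 (SE 0.24) with IL-4 and -2.84 (SE 0.24) in mock. Lyz2 stood at 43.4 CPM in KO IL-4 library 2 and 43.1 CPM in KO mock library 2, so these libraries stand apart, and at 15360 to 21620 CPM in the other KO libraries, against 28470 to 44640 CPM in WT. Values without both KO 2 libraries are given beside the calls they end. The macrophage markers Adgre1, Csf1r and Cd68 were each at 771 CPM or more in every library. Among dendritic, B and T cell markers, Flt3, Xcr1, Clec9a, Ms4a1 and Cd3e were not among the genes of the table, but others were. Measured dendritic and B cell markers, such as Itgax (42.9 to 1350 CPM) and Ighm (1.64 to 50.5 CPM), are counted with Clec12a below. Of 8 T and NK cell markers 2 were measured, Cd4 (3.27 to 10 CPM) and Klrb1c (0.0274 to 0.732 CPM). In KO 1 was higher and 1 lower with IL-4, and 0 were called in mock, where 18.8% and 34.5% of all genes were called. In such bulk RNA, fewer cells of a type and less RNA per cell cannot be told apart.

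Most of the 9 receptor genes differed between KO and WT macrophages and most responded to IL-4, in both directions. With IL-4, 5 of 9 were higher and 3 lower in KO at an edgeR quasi-likelihood adjusted p under 0.05, where 18.8% of all genes were called (8.57% higher and 10.2% lower). Without IL-4, 5 were again higher and 3 lower in KO, where 34.5% of all genes were called (15.7% higher and 18.8% lower). The members' median log2 fold change of KO over WT was 0.37 with IL-4 and 0.56 in mock, against -0.01 and -0.02 over all genes. KO and WT libraries did not overlap for 9 members with IL-4, where this held for 35.9% of all genes, and for 8 in mock, where it held for 47.7%. IL-4 against mock gave 5 higher and 3 lower members in KO, where 30.3% of all genes were called (16% higher and 14.2% lower), with a members' median of 0.50. In WT it gave 5 higher and 2 lower members, where 26.7% of all genes were called (13.6% higher and 13% lower), with a median of 1.01. IL-4 and mock libraries did not overlap for 7 members in KO and 7 in WT, against 47.7% and 38.3% of all genes.

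**Figure D1:**
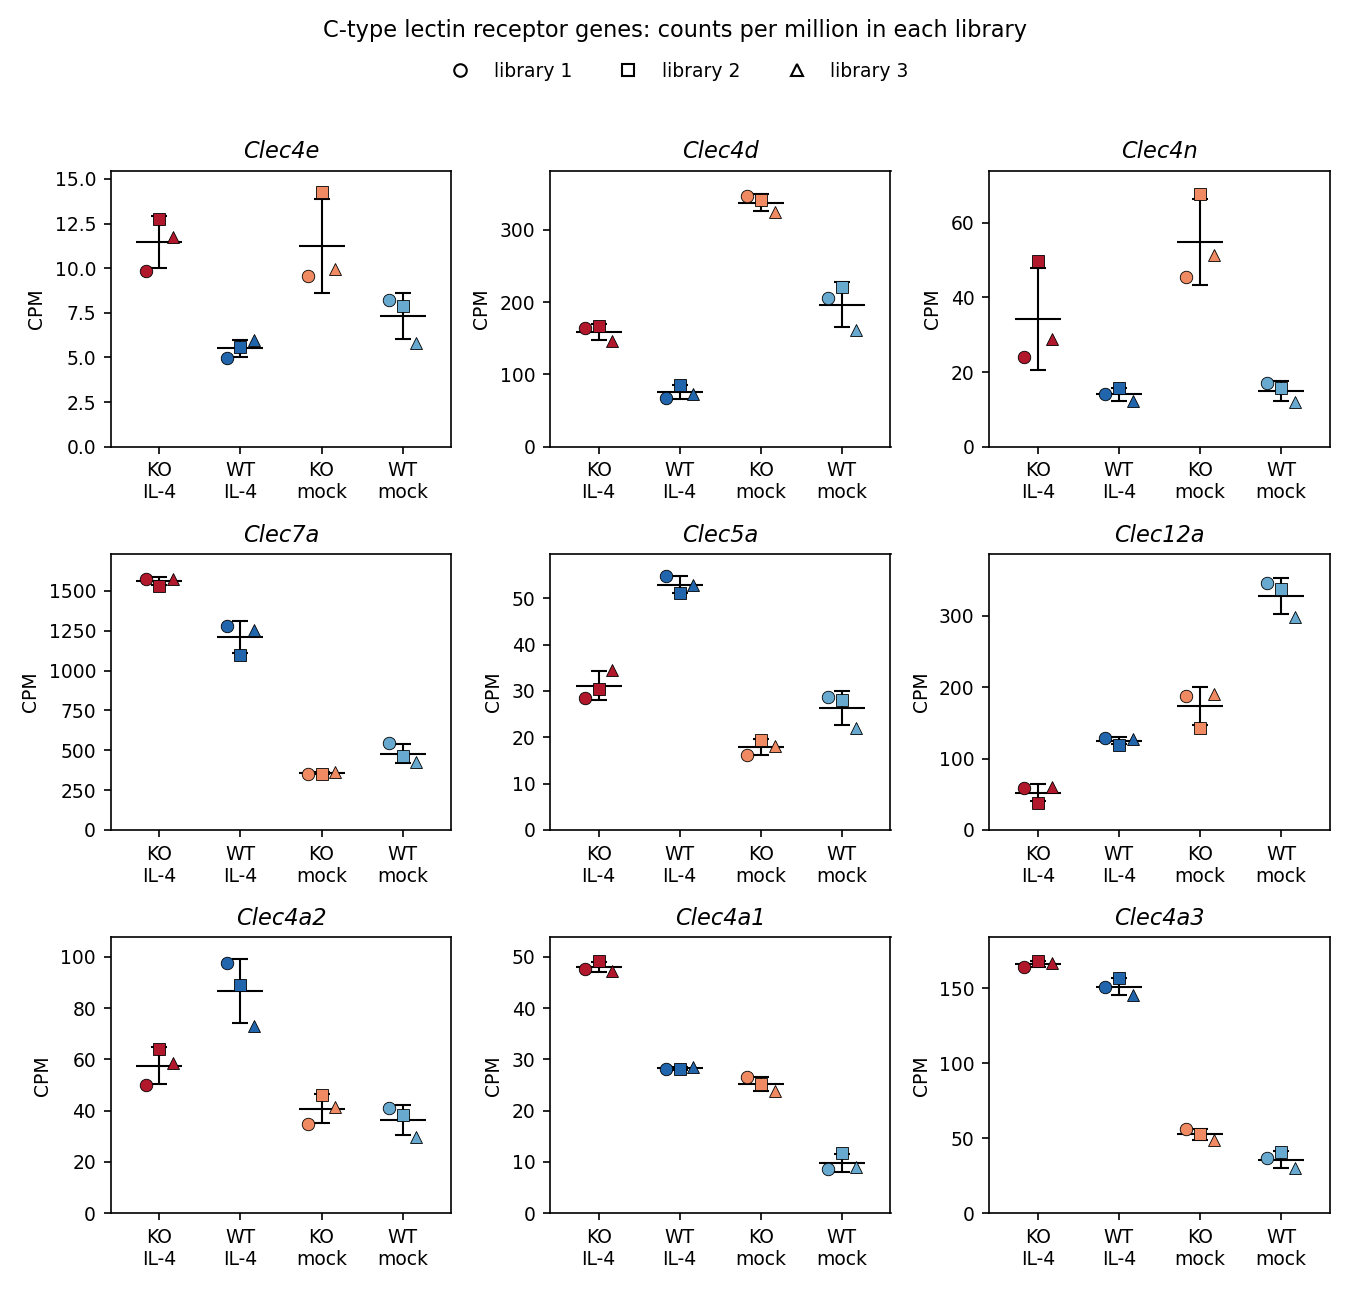
CPM of each receptor gene in the 12 libraries, with each axis starting at 0. Points are libraries (circle 1, square 2, triangle 3), horizontal bars are group means and whiskers are SD (n = 3). Clec7a reached 1531 to 1576 CPM in the KO IL-4 group, and Clec12a was highest in the WT mock group.

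Clec4e (ENSMUSG00000030142.10, 123281789 to 123289870, minus strand) encodes Mincle, which binds the mycobacterial cord factor and signals through FcRγ. It had 9.87, 12.8 and 11.8 CPM in KO IL-4 libraries 1, 2 and 3, against 4.99, 5.57 and 5.96 CPM in WT IL-4. Without IL-4 it had 9.54, 14.3 and 9.95 CPM in KO mock, against 8.24, 7.87 and 5.83 CPM in WT mock. Every KO library lay above every WT library of the same treatment, and KO library 2 was the highest of its group both times. Clec4e was 2.09-fold higher in KO with IL-4 (log2 1.06, SE 0.17, adjusted p = 0.000628) and 1.55-fold higher in mock (log2 0.63, SE 0.17, adjusted p = 0.0107). Without KO mock library 2 the mock difference was 0.42 (adjusted p = 0.0597), and without both KO 2 libraries 0.44 (adjusted p = 0.0569), so that call rests on this library. These are low counts, 194 to 516 reads per library.

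Clec4d (ENSMUSG00000030144.4, 123262111 to 123275265, plus strand) encodes MCL, the partner of Mincle at the cell surface. It had 164, 167 and 146 CPM in KO IL-4, against 68.0, 86.0 and 72.3 CPM in WT IL-4. In mock cultures it had 347, 342 and 325 CPM in KO, against 206, 222 and 162 CPM in WT. The groups did not overlap under either treatment. Clec4d was 2.11-fold higher in KO with IL-4 (log2 1.08, SE 0.11, adjusted p = 2.13e-05) and 1.72-fold higher in mock (log2 0.78, SE 0.11, adjusted p = 0.000144). Clec4d fell with IL-4 in both genotypes, 2.12-fold in KO (log2 -1.09, SE 0.11, adjusted p = 3.64e-06) and 2.60-fold in WT (log2 -1.38, SE 0.11, adjusted p = 3.14e-07). Its mean was 159 ± 11.3 CPM in KO IL-4 and 75.4 ± 9.43 CPM in WT IL-4, against 338 ± 11.4 CPM in KO mock and 196 ± 31.0 CPM in WT mock (SD, n = 3).

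Clec4e, unlike Clec4d, was not called with IL-4. Its log2 fold change of IL-4 over mock was 0.03 in KO (SE 0.16, adjusted p = 0.926) and -0.41 in WT (SE 0.17, adjusted p = 0.104). The 95% intervals ran from -0.33 to 0.38 in KO and from -0.78 to -0.03 in WT. In a fit with a replicate block, which joins a mock library to the IL-4 library of its number, the WT value was -0.40 (adjusted p = 0.0361), and without WT mock library 3 it was -0.54 (adjusted p = 0.0472). Per transcript length, Clec4d RPKM (CPM divided by gene length in kilobases) was 43.6 ± 7.1 times that of Clec4e in KO IL-4 and 42.6 ± 5.12 times in WT IL-4, against 96.2 ± 19.7 times in KO mock and 83.7 ± 5.36 times in WT mock (SD, n = 3). The ratio was therefore lower with IL-4 in both genotypes, and its KO and WT values lay within their spread of each other.

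Clec4n (ENSMUSG00000023349.14, 123229843 to 123247021, plus strand) encodes Dectin-2, a receptor for fungal mannans that pairs with FcRγ. It had 23.9, 49.8 and 28.9 CPM in KO IL-4, against 14.0, 15.7 and 12.4 CPM in WT IL-4. Mock cultures had 45.5, 67.6 and 51.2 CPM in KO, against 17.1, 15.8 and 11.9 CPM in WT. All KO libraries were above all WT libraries, and KO library 2 was again the highest. Clec4n was 2.44-fold higher in KO with IL-4 (log2 1.29, SE 0.23, adjusted p = 0.00148) and 3.68-fold higher in mock (log2 1.88, SE 0.23, adjusted p = 6.44e-05), the largest KO against WT difference of the 9 genes. Without both KO 2 libraries these log2 differences were 0.92 (adjusted p = 0.00248) and 1.72 (adjusted p = 4.48e-05).

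Clec4n fell with IL-4 in KO (log2 -0.68, SE 0.22, adjusted p = 0.0334), although KO IL-4 library 2 lay within the range of the KO mock libraries. This call was lost without KO mock library 2 (log2 -0.50, adjusted p = 0.135), KO IL-4 library 1 (-0.47, adjusted p = 0.141) or KO IL-4 library 3 (-0.57, adjusted p = 0.139). With the replicate block together with the length correction it was -0.58 (adjusted p = 5.18e-05). In WT the change was -0.08 (SE 0.24, adjusted p = 0.839), with a 95% interval from -0.59 to 0.42.

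Clec4e, Clec4d and Clec4n were called higher in KO under both treatments, as was Clec4a1, while Clec4a3 was higher in mock and Clec7a with IL-4. Among transcripts of neutrophil markers, too, more were called higher than lower in KO. Of 15 such markers 13 were measured, and 7 were higher and 0 lower in KO with IL-4, whereas 10 were higher and 1 lower in mock. Of all genes, 18.8% were called with IL-4 and 34.5% in mock. The summed level of the 13 markers was 567, 997 and 761 CPM in KO IL-4, against 311, 392 and 434 CPM in WT IL-4. In mock it was 724, 1230 and 839 CPM in KO, against 406, 491 and 554 CPM in WT. KO library 2 had the highest sum of its group under both treatments, as it did for Clec4n and Clec4e, whereas Clec4d in KO mock was highest in library 1. For IL-4 against mock, 1 marker was higher and 1 lower in KO, and 1 higher and 2 lower in WT, where 30.3% and 26.7% of all genes were called. Over the 12 libraries Ltf ran from 16.4 to 329 CPM, Ngp from 13.9 to 258, Mmp8 from 89.8 to 285, Csf3r from 117 to 231, S100a9 from 8.06 to 144 and S100a8 from 8.58 to 92.2 CPM. The other 7 measured markers were at most at 10.1 CPM, with Ly6g and Mpo at 0 in at least 1 library. Elane and Prtn3 were not among the genes of the table. The part of these transcripts in the result was not tested.

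**Figure D2:**
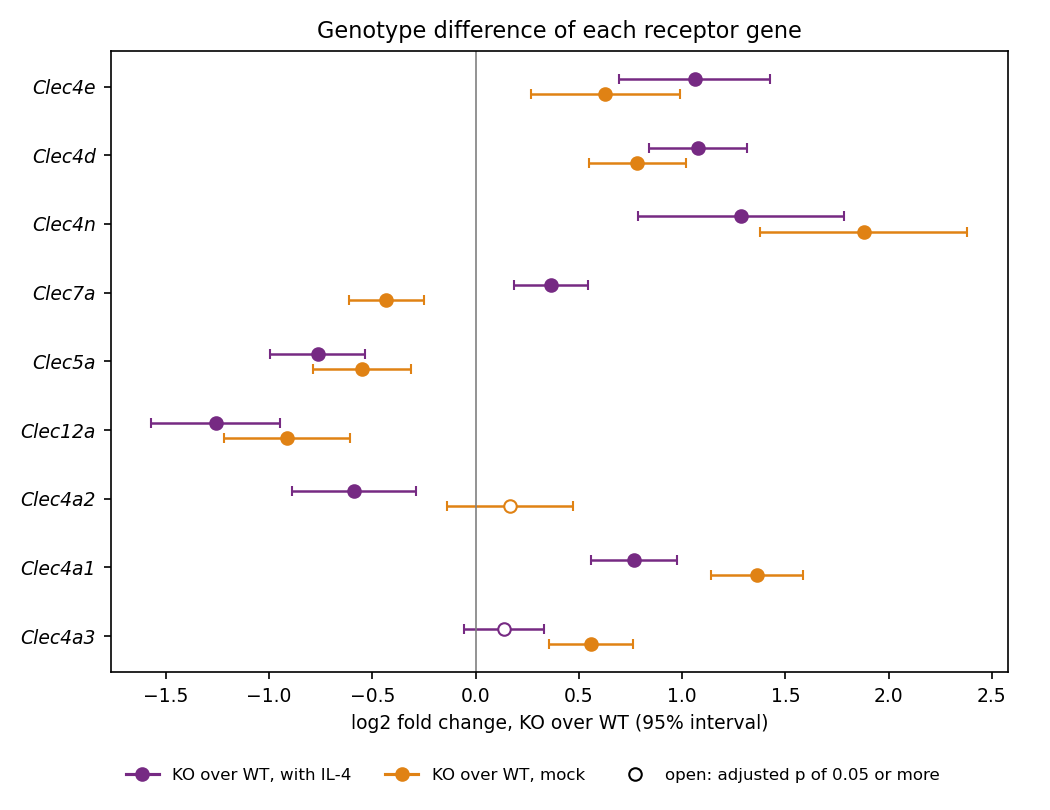
Log2 fold change of KO over WT for each receptor gene, with IL-4 (purple, upper of each pair) and in mock cultures (orange), with 95% intervals from edgeR and open circles for an adjusted p of 0.05 or more. Clec4e, Clec4d, Clec4n and Clec4a1 lie right of 0 under both treatments, Clec5a and Clec12a left of 0, and Clec7a changes side.

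Clec7a (ENSMUSG00000079293.11, 129461591 to 129472779, minus strand) encodes Dectin-1, the receptor for fungal beta-glucan, which carries an activation motif of its own. The table lists it as a polymorphic pseudogene, a class for genes that are intact in some strains only. It had 1574, 1531 and 1576 CPM in KO IL-4, against 1281, 1098 and 1253 CPM in WT IL-4. The mock libraries had 353, 349.5 and 362 CPM in KO, against 546, 465 and 426 CPM in WT. Every KO library was thus above every WT library with IL-4, and below every WT library without it. Clec7a was 1.29-fold higher in KO with IL-4 (log2 0.37, SE 0.08, adjusted p = 0.00697) and 1.35-fold lower in KO in mock (log2 -0.43, SE 0.08, adjusted p = 0.00144).

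Clec7a rose with IL-4, 4.397-fold in KO (log2 2.14, SE 0.09, adjusted p = 3.27e-10) and 2.53-fold in WT (log2 1.34, SE 0.09, adjusted p = 3.02e-08). The response in KO exceeded that in WT by 0.80 on the log2 scale (SE 0.12, 95% interval 0.544 to 1.053, adjusted p = 0.0148), a difference called for 0.736% of all genes. Clec7a was the 1 member called in this test, and Clec4a1, Clec4a2 and Clec4a3 had the next smallest p-values. The adjusted p of Clec7a was 0.0581 without KO IL-4 library 1 (value 0.78) and 0.0874 without both KO 2 libraries (value 0.78), so the size held while the call did not. Without WT mock library 2 Clec4a1 was called as well (-0.77, adjusted p = 0.0305).

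Same-numbered cultures with and without IL-4 varied together within a genotype, and with that replicate block the difference in response was called for 6 members, against 11.6% of all genes (6.5% higher and 5.14% lower). Clec7a was higher, and the others were less positive or more negative in KO. Their values were -0.61 for Clec4a1 (adjusted p = 0.0103), -0.75 for Clec4a2 (adjusted p = 0.000439) and -0.43 for Clec4a3 (adjusted p = 0.016). For Clec4n the value was -0.64 (adjusted p = 0.0119) and for Clec12a -0.36 (adjusted p = 0.0245). In the fit without the block these 5 genes had adjusted p-values from 0.0678 to 0.379. With a correction for gene length added to the block the calls were Clec7a at 0.91 (adjusted p = 8.17e-05) and Clec4d at 0.49 (adjusted p = 0.00639), both higher, and Clec4a2 at -0.66 (adjusted p = 0.000794) and Clec12a at -0.43 (adjusted p = 0.0115).

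**Figure D3:**
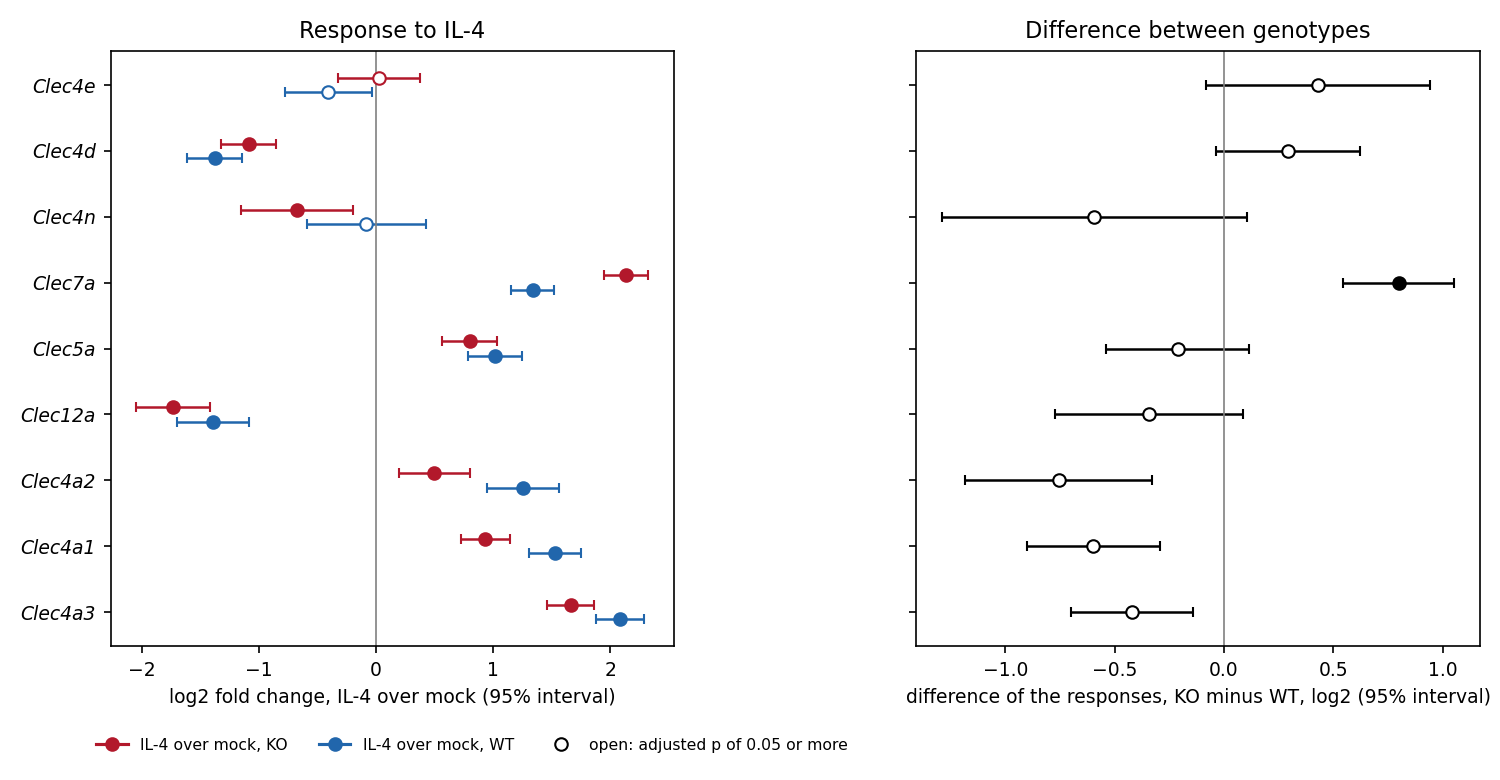
Left, log2 fold change of IL-4 over mock in KO (red, upper of each pair) and WT (blue) for each receptor gene; right, the KO response minus the WT response. Whiskers are 95% intervals from edgeR without the replicate block, and open circles have an adjusted p of 0.05 or more. Clec7a lies furthest right in the right panel, at 0.80.

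Clec5a (ENSMUSG00000029915.14, 40574894 to 40585821, minus strand) encodes MDL-1, a receptor that signals through DAP12. It had 28.4, 30.4 and 34.6 CPM in KO IL-4, against 54.7, 51.0 and 52.9 CPM in WT IL-4. Without IL-4 it had 16.1, 19.5 and 18.03 CPM in KO, against 28.6, 28.1 and 22.04 CPM in WT. The groups did not overlap, and Clec5a was lower in KO by 1.70-fold with IL-4 (log2 -0.76, SE 0.11, adjusted p = 0.000209) and by 1.47-fold in mock (log2 -0.55, SE 0.11, adjusted p = 0.00175). IL-4 raised it 1.74-fold in KO (log2 0.80, SE 0.11, adjusted p = 7.37e-05) and 2.02-fold in WT (log2 1.01, SE 0.11, adjusted p = 5.85e-06).

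Clec12a (ENSMUSG00000053063.11, 129342691 to 129365303, plus strand) encodes MICL, an inhibitory receptor that recognises uric acid crystals and dying cells. It had 58.7, 38.4 and 59.7 CPM in KO IL-4, against 128, 119 and 127 CPM in WT IL-4. In mock cultures it had 188, 143 and 191 CPM in KO, against 346, 338 and 299 CPM in WT. KO library 2 was the lowest under both treatments, and no KO library reached a WT library of the same treatment. Clec12a was 2.39-fold lower in KO with IL-4 (log2 -1.26, SE 0.15, adjusted p = 5e-05) and 1.89-fold lower in mock (log2 -0.91, SE 0.14, adjusted p = 0.00032). Without both KO 2 libraries the values were -1.07 (adjusted p = 2.31e-05) and -0.77 (adjusted p = 0.000135).

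Clec12a also fell with IL-4, 3.32-fold in KO (log2 -1.73, SE 0.15, adjusted p = 6.25e-07) and 2.62-fold in WT (log2 -1.39, SE 0.14, adjusted p = 4.38e-06). Its mean level was therefore lowest in KO IL-4, 52.3 ± 12 CPM, and highest in WT mock, 328 ± 24.9 CPM. The ratio of Clec7a to Clec12a in RPKM was 65.0 ± 16.1 in KO IL-4 and 20.3 ± 0.861 in WT IL-4, against 4.35 ± 0.679 in KO mock and 3.06 ± 0.224 in WT mock (SD, n = 3). The lowest KO IL-4 library had a ratio of 55.3 and the highest WT IL-4 library 20.9. Of 8 monocyte markers 7 were measured, and their sum was 35.1 to 51.9 CPM in KO IL-4, against 40.8 to 59.7 CPM in WT IL-4, with 3 genes higher and 2 lower. In mock their sum was 72.5 to 83 CPM in KO, against 158 to 205 CPM in WT, with 3 genes higher and 3 lower. Among these markers Cx3cr1, the gene closest to Clec12a in log2 CPM, ran from 0.383 to 166 CPM over the libraries. Over all genes, 18.8% were called between KO and WT with IL-4 and 34.5% in mock. Of 10 dendritic cell markers 4 were measured, with 0 higher and 2 lower in KO under each treatment. Their sum was 413 to 554 CPM in KO IL-4, against 1080 to 1380 CPM in WT IL-4. In mock the sum was 44.6 to 71.5 CPM in KO, against 200 to 234 CPM in WT. Itgax, which macrophages can also express, ran from 42.9 to 1350 CPM over the libraries, and Batf3, the next highest of these 4, from 0.746 to 37.1 CPM. Of 6 B cell markers 2 were measured, with 1 lower in KO under each treatment, and their sum was 2.95 to 6.08 CPM in KO IL-4, against 13.2 to 15.8 CPM in WT IL-4. In mock it was 12.1 to 18.7 CPM in KO, against 43.8 to 52.3 CPM in WT. The part of these transcripts in the lower levels of Clec12a and Clec5a in KO, and of Clec4a2 in KO with IL-4, was not tested.

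Clec4a2 (ENSMUSG00000030148.15, 123106428 to 123143999, plus strand) encodes DCIR1, an inhibitory receptor with a tyrosine-based inhibition motif. It had 49.9, 64.2 and 58.6 CPM in KO IL-4, against 97.6, 89.0 and 73.1 CPM in WT IL-4. Mock cultures had 34.8, 46.0 and 41.5 CPM in KO, against 41.1, 38.5 and 29.6 CPM in WT, so the mock groups overlapped and the IL-4 groups did not. With IL-4 it was 1.504-fold lower in KO (log2 -0.59, SE 0.14, adjusted p = 0.00882), whereas the mock value of 0.17 did not pass (SE 0.14, 95% interval -0.14 to 0.47, adjusted p = 0.39). The IL-4 call was lost without WT IL-4 library 1 (-0.48, adjusted p = 0.0615) and without KO IL-4 library 1 (-0.48, adjusted p = 0.0563).

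Clec4a2 rose with IL-4, 1.41-fold in KO (log2 0.50, SE 0.14, adjusted p = 0.016) and 2.38-fold in WT (log2 1.252, SE 0.14, adjusted p = 1.1e-05). The KO response did not pass without KO mock library 1 (0.39, adjusted p = 0.0787), KO IL-4 library 2 (0.41, adjusted p = 0.0785), KO IL-4 library 3 (0.48, adjusted p = 0.0533) or both KO 2 libraries (0.51, adjusted p = 0.054).

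Clec4a1 (ENSMUSG00000049037.8, 122921848 to 122934619, plus strand) encodes DCIR4, a relative of DCIR1 without the inhibitory motif. It had 47.7, 49.2 and 47.3 CPM in KO IL-4, against 28.1, 28.2 and 28.6 CPM in WT IL-4. Without IL-4 it had 26.6, 25.1 and 23.9 CPM in KO, against 8.59, 11.8 and 8.997 CPM in WT. The replicates of each group lay close together and no groups of one treatment overlapped. Clec4a1 was 1.70-fold higher in KO with IL-4 (log2 0.77, SE 0.10, adjusted p = 9.97e-05) and 2.57-fold higher in mock (log2 1.36, SE 0.10, adjusted p = 2.2e-06). IL-4 raised it 1.91-fold in KO (log2 0.93, SE 0.10, adjusted p = 5.65e-06) and 2.89-fold in WT (log2 1.53, SE 0.10, adjusted p = 6.08e-08).

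Clec4a3 (ENSMUSG00000043832.13, 122952515 to 122969875, plus strand) encodes DCIR3, which also lacks the inhibitory motif. It had 164, 168 and 167 CPM in KO IL-4, against 151, 157 and 146 CPM in WT IL-4. In mock cultures it had 56.1, 52.8 and 48.9 CPM in KO, against 36.6, 40.7 and 29.8 CPM in WT. KO libraries lay above WT libraries under both treatments, but with IL-4 the gap was small. The KO against WT value did not pass with IL-4 (log2 0.14, SE 0.09, 95% interval -0.06 to 0.33, adjusted p = 0.328), and in mock Clec4a3 was 1.47-fold higher in KO (log2 0.56, SE 0.09, adjusted p = 0.000534). Clec4a3 rose with IL-4 3.16-fold in KO (log2 1.66, SE 0.09, adjusted p = 9.34e-09) and 4.23-fold in WT (log2 2.08, SE 0.10, adjusted p = 9.49e-10), the largest rise of a member in WT. With IL-4, then, Clec4a1 was called higher in KO, Clec4a2 lower, and Clec4a3 was not called. Whether these genes differ from each other was not tested.

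Levels between genes were compared in RPKM, with the gene length of the deposited table. Clec7a was the most abundant member in KO IL-4 (592 ± 9.59 RPKM), WT IL-4 (459 ± 37.5 RPKM) and WT mock (182 ± 23.2 RPKM). In KO mock Clec4d came highest at 211 ± 7.14 RPKM and Clec7a followed at 135 ± 2.56 RPKM, and their libraries did not overlap. Clec4e was the least abundant in every group, at 2.31 ± 0.296 RPKM in KO IL-4, 1.11 ± 0.0984 in WT IL-4, 2.27 ± 0.526 in KO mock and 1.47 ± 0.261 in WT mock. With IL-4, Clec4a3 came after Clec7a in both genotypes, at 125 ± 1.46 RPKM in KO and 114 ± 4.21 RPKM in WT. Some neighbours in the order lay within their spread, such as Clec4a1 (6.29 ± 1.13 RPKM) and Clec5a (6.83 ± 0.949 RPKM) in WT mock, and Clec4a2 (13.9 ± 1.92 RPKM) and Clec4a1 (16.2 ± 0.893 RPKM) in KO mock.

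Summed over the 9 genes, the receptors took 2120 ± 9.2 CPM in KO IL-4 and 1749 ± 91.2 CPM in WT IL-4, against 1069 ± 8.73 CPM in KO mock and 1133 ± 125 CPM in WT mock (SD, n = 3). Clec7a made up 65.0% ± 1.46 of their summed RPKM in KO IL-4 and 64.1% ± 2.82 in WT IL-4. In mock its share was 27.3% ± 0.95 in KO and 42.5% ± 2.69 in WT, with no overlap between the libraries.

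**Figure D4:**
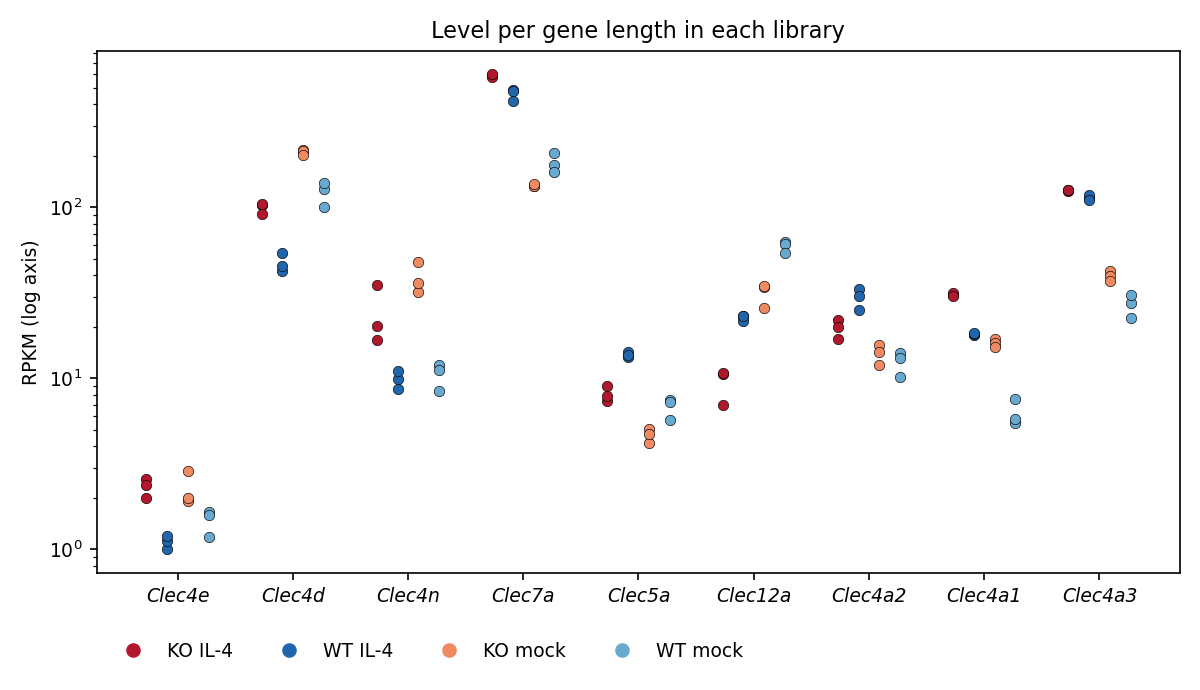
Level of each receptor gene in RPKM on a log axis, with 1 point per library and the groups side by side in the order KO IL-4, WT IL-4, KO mock and WT mock. Clec7a is highest in 3 of the 4 groups, Clec4d is highest in KO mock, and Clec4e lies between 1.005 and 2.87 RPKM throughout.

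The adaptor genes Fcer1g and Tyrobp were called between KO and WT only after a correction for gene length, each under 1 treatment. Fcer1g was at 588 ± 41.5 CPM in KO IL-4 and 656 ± 87.5 CPM in WT IL-4, against 720.1 ± 71.7 CPM in KO mock and 763 ± 78.1 CPM in WT mock, and it was not called between genotypes (log2 -0.16, adjusted p = 0.334, with IL-4 and -0.08, adjusted p = 0.569, in mock). With the length correction its mock value was -0.27 (adjusted p = 0.00392). Tyrobp had 1234 ± 33.3 CPM in KO IL-4 and 1422 ± 153 CPM in WT IL-4, against 1501 ± 78.2 CPM in KO mock and 1382 ± 71.3 CPM in WT mock (SD, n = 3 each). Its KO against WT value was -0.20 with IL-4 (95% interval -0.37 to -0.04, adjusted p = 0.0779) and 0.12 in mock (adjusted p = 0.245). With the length correction the value with IL-4 was -0.15 (adjusted p = 0.0484). Syk (0.16 with IL-4 and -0.05 in mock) and Card9 (-0.29 and -0.38) were not called between genotypes either, with adjusted p-values from 0.0926 to 0.759. Card9 in mock was called with the length correction (-0.53, adjusted p = 0.0237) and without WT IL-4 library 2 (-0.38, adjusted p = 0.0369).

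Of the phosphatases that the inhibitory members recruit, Ptpn6 was lower in KO under both treatments and Ptpn11 in mock. Ptpn6, which encodes SHP-1, changed by -0.20 with IL-4 (SE 0.06, adjusted p = 0.0276) and -0.24 in mock (SE 0.06, adjusted p = 0.0063), and the mock call was lost without both KO 2 libraries (-0.18, adjusted p = 0.065). The call with IL-4 was lost without KO IL-4 library 2 or 3 and without WT IL-4 library 1 or 3, at adjusted p-values from 0.0549 to 0.107, and without both KO 2 libraries (-0.18, adjusted p = 0.11). That call was also lost in a fit of the 6 libraries alone (-0.19, adjusted p = 0.0697). With a block on the number shared by KO and WT the value was -0.19 (adjusted p = 0.164). Ptpn11, which encodes SHP-2, did not pass with IL-4 (-0.09, adjusted p = 0.508) and changed by -0.40 in mock (SE 0.08, adjusted p = 0.00213). With a correction for gene length the Ptpn11 value in mock was -0.23 (adjusted p = 0.0828).

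Tyrobp fell with IL-4 in KO (log2 -0.28, SE 0.08, adjusted p = 0.0117), against 0.04 in WT (adjusted p = 0.744), and the difference of the responses did not pass (-0.32, adjusted p = 0.14), although it did with the replicate block (-0.32, adjusted p = 0.0241). The Tyrobp call in KO was lost without KO mock library 1 (-0.25, adjusted p = 0.055). Fcer1g was -0.29 in KO (adjusted p = 0.0467) and -0.22 in WT (adjusted p = 0.146). With the block, Fcer1g also passed in WT (-0.22, adjusted p = 0.00704). Ptpn6 changed by -0.12 in KO and -0.16 in WT, neither of them called. The Ptpn6 value in WT was called with the block (-0.16, adjusted p = 0.0314), and also with DESeq2, limma-voom, library size alone or the length correction. Card9 was 0.48 in KO (adjusted p = 0.04) and 0.39 in WT (adjusted p = 0.0919), on levels under 12 CPM. The KO calls of Fcer1g and Card9 were each lost in 5 of the 6 fits that left out 1 KO library, and without both KO 2 libraries (Fcer1g -0.32, adjusted p = 0.08; Card9 0.59, adjusted p = 0.0674). That of Fcer1g was also lost with library size alone, the length correction or a filter of 1 CPM in 3 libraries. Leaving out WT mock library 1 or WT IL-4 library 1 ended it as well. The adjusted p-values in these fits ran from 0.053 to 0.0937.

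**Figure D5:**
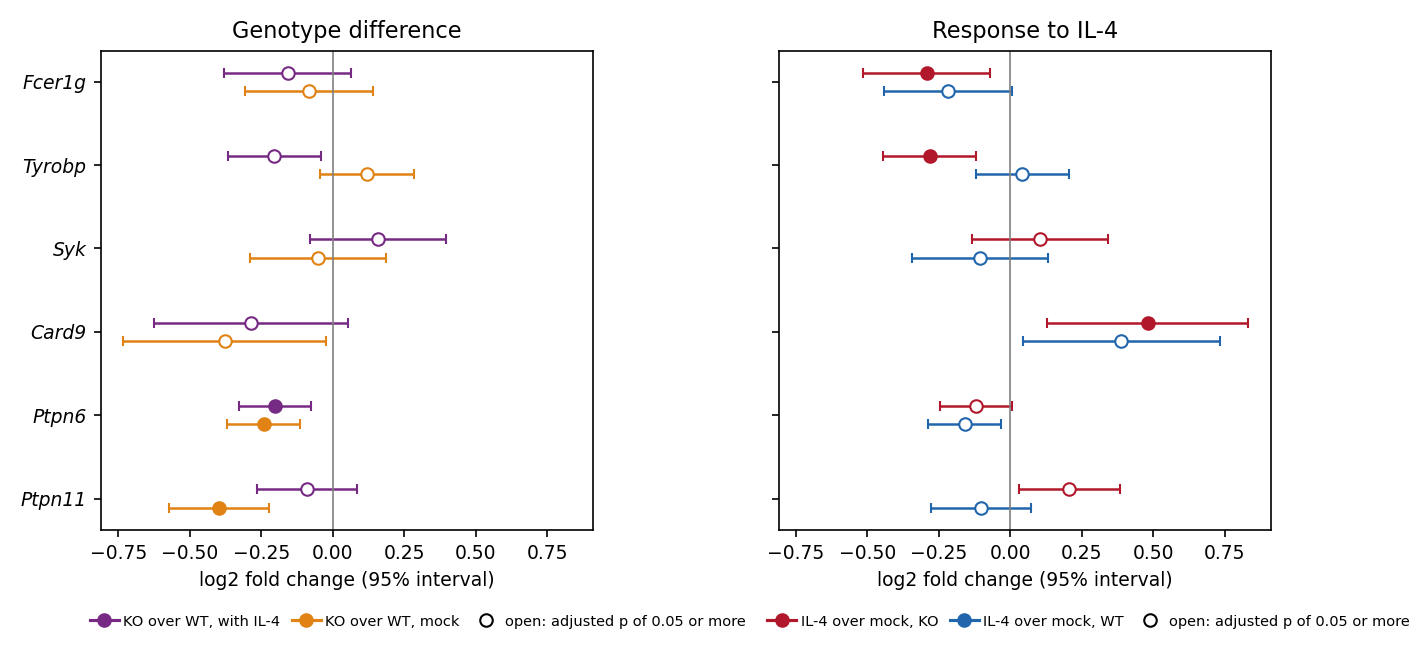
Log2 fold changes of 6 adaptor and phosphatase genes, left for KO over WT (purple with IL-4, orange in mock) and right for IL-4 over mock (red in KO, blue in WT). Whiskers are 95% intervals from edgeR and open circles have an adjusted p of 0.05 or more. All values lie between -0.40 and 0.48.

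Among 34 genes of adaptors and proximal signalling, 3 were higher and 8 lower in KO with IL-4 (list median -0.08), and 0 were higher and 9 lower in mock (median -0.09). The shares over all genes were 8.57% higher and 10.2% lower with IL-4, and 15.7% higher and 18.8% lower in mock. Genes of the list that were lower in both conditions included Fgr, a Src family kinase, at -0.62 with IL-4 (SE 0.06, adjusted p = 2.22e-05) and -0.68 in mock (SE 0.07, adjusted p = 9.38e-06). Pik3cd, a catalytic subunit of phosphoinositide 3-kinase, was at -0.71 (SE 0.09, adjusted p = 0.000137) and -0.82 (SE 0.10, adjusted p = 3.68e-05). When WT IL-4 library 1, any one KO IL-4 library or both KO 2 libraries were left out, 6 or 7 genes of this list were called with IL-4 in place of 11. With the length correction 14 were called in mock in place of 9. IL-4 against mock gave 8 higher and 12 lower in KO and 5 higher and 11 lower in WT, where 30.3% and 26.7% of all genes were called. The protein kinase C gene Prkcd rose 1.74 in KO (SE 0.06, adjusted p = 8.51e-11) and 1.85 in WT (SE 0.06, adjusted p = 4.06e-11), and the Src family kinase gene Lyn fell by 0.44 in KO (adjusted p = 9.04e-05) and by 0.50 in WT (adjusted p = 2.49e-05), all on the log2 scale.

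Of 14 measured genes of inhibitory phosphatases and other brakes, 0 were higher and 5 lower in KO with IL-4 (median -0.19), and 1 was higher and 9 lower in mock (median -0.32). Between KO and WT, 18.8% of all genes were called with IL-4 and 34.5% in mock. Sla, which encodes an adaptor that restrains Src family kinase signalling, changed by -1.19 with IL-4 (SE 0.10, adjusted p = 5.24e-06) and by -0.81 in mock (SE 0.10, adjusted p = 8.44e-05). Ubash3b, a phosphatase that acts on Syk, changed by -0.77 (SE 0.09, adjusted p = 6.88e-05) and -0.84 (SE 0.09, adjusted p = 2.72e-05). Without WT IL-4 library 1, KO IL-4 library 2 or both KO 2 libraries, 3 genes of this list were called with IL-4 in place of 5. For IL-4 against mock 8 of the 14 were higher and 1 lower in KO, and 7 higher and 3 lower in WT. Of all genes 30.3% were called in KO and 26.7% in WT. IL-4 raised the ubiquitin ligase gene Cblb by 1.59 in KO (adjusted p = 4.88e-08) and by 1.39 in WT (adjusted p = 1.46e-07). The adaptor gene Dok2 had a smaller response in KO (difference -0.81, SE 0.11, adjusted p = 0.0148), which was lost without KO IL-4 library 1 (-0.80, adjusted p = 0.054) and without both KO 2 libraries (-0.86, adjusted p = 0.0874).

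Of 47 other C-type lectin genes 21 were measured. In KO 2 were higher and 4 lower with IL-4 (median -0.10), and 4 were higher and 5 lower in mock (median -0.37). The share called over all genes was 18.8% with IL-4 and 34.5% in mock. Cd72, an inhibitory lectin, was at 109 ± 13.7 CPM in KO IL-4 and 229 ± 16.3 CPM in WT IL-4 (log2 -1.07, SE 0.14, adjusted p = 0.000147), and at 85.0 ± 21.2 CPM in KO mock and 159 ± 8.48 CPM in WT mock (log2 -0.90, SE 0.14, adjusted p = 0.000382). For IL-4 against mock 6 of the 21 were higher and 4 lower in KO, and 7 higher and 6 lower in WT. Of all genes 30.3% were called in KO and 26.7% in WT. The mannose receptor gene Mrc1 rose with IL-4 by 3.08 in KO (SE 0.17, adjusted p = 9.1e-09) and by 3.21 in WT (SE 0.17, adjusted p = 6.2e-09), and Olr1, which encodes the oxidised lipoprotein receptor LOX-1, by 3.17 and 3.67. Cd93 had a more positive response in KO (difference 0.70, adjusted p = 0.0462), a call lost in 11 of the 12 fits that left out 1 library and without both KO 2 libraries (0.71, adjusted p = 0.121).

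Of 24 genes known to be induced through these receptors 17 were measured, and 4 were higher and 2 lower in KO with IL-4 (median 0.17), against 6 higher and 3 lower in mock (median 0.54). For all genes the called share was 18.8% with IL-4 and 34.5% in mock. Il1rn, which encodes the IL-1 receptor antagonist, was at 25.7 ± 2.99 CPM in KO IL-4 and 7.16 ± 0.445 CPM in WT IL-4 (log2 1.84, SE 0.12, adjusted p = 3.81e-07), and at 42.7 ± 5.83 CPM in KO mock and 11.9 ± 0.872 CPM in WT mock (log2 1.84, SE 0.11, adjusted p = 5.2e-07). Tnf was lower in KO, at -0.84 with IL-4 (SE 0.12, adjusted p = 0.000268) and -0.85 in mock (SE 0.12, adjusted p = 0.00017). Of 14 measured sensors of other families 4 were higher and 3 lower in KO with IL-4 (median -0.05), and 6 were higher and 3 lower in mock (median 0.08), beside the same shares of all genes. Cd14, a coreceptor for lipopolysaccharide, was 1.203 higher with IL-4 (SE 0.14, adjusted p = 6.16e-05) and 1.26 higher in mock (SE 0.14, adjusted p = 2.22e-05).

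Genes next to the members were compared where they lay within 200000 bases and were measured. Around the Clec4 cluster 0 of 7 other genes were higher and 1 lower in KO with IL-4, and 1 was higher and 2 lower in mock. Clec4b1, a further receptor gene of that cluster, was at 6.35 ± 1.63 CPM in KO IL-4 and 14.4 ± 3.38 CPM in WT IL-4, against 0.964 ± 0.0876 CPM in KO mock and 1.86 ± 0.295 CPM in WT mock. It was lower in KO with IL-4 (log2 -1.18, SE 0.19, adjusted p = 0.00066), as was Clec4a2. Of the other members of the cluster, Clec4a1, Clec4n, Clec4d and Clec4e were higher and Clec4a3 was not called. Clec4b1 was also lower in mock (log2 -0.94, SE 0.27, adjusted p = 0.0159). That call was lost with limma-voom (adjusted p = 0.0936) and without WT mock library 1 (adjusted p = 0.0617) or 2 (adjusted p = 0.0543). IL-4 raised Clec4b1 by 2.72 in KO and 2.96 in WT. Around Clec12a and Clec7a 1 of 8 other genes was higher in KO with IL-4 and 0 were called in mock, and around Clec5a 0 of 4 were called under either treatment. These counts stand beside 18.8% of all genes called with IL-4 and 34.5% in mock. Neighbouring genes of a cluster thus included ones called higher, ones called lower and ones not called.

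Over the 12 libraries the members' log2 CPM (prior count of 2) varied together in part. The highest correlations were r = 0.92 between Clec4a3 and Clec7a, 0.88 between Clec4e and Clec4n and 0.87 between Clec4a2 and Clec5a. The lowest were -0.96 between Clec4d and Clec5a and -0.93 between Clec4a1 and Clec12a. All of these use the same 4 groups and libraries, so they describe the group pattern. Among 7962 other genes, those closest were Fcgr2b for Clec7a (r = 0.991), Arg1 for Clec4a3 (r = 0.995), Cx3cr1 for Clec12a (0.99), Anxa1 for Clec5a (0.989), Copz1 for Clec4a1 (0.989), Btg1 for Clec4d (0.981), Acot7 for Clec4a2 (0.974), Emb for Clec4e (0.958) and Ptgr1 for Clec4n (0.949).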

How the data were processed

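RNA from 12 libraries of bone marrow-derived macrophages was analysed, with groups and replicate numbers taken from the sample titles. The submitters' processing notes name STAR 2.7.2b, Subread 1.6.5 with featureCounts, bcl2fastq, edgeR and the build mm10. The deposited table holds read counts, as whole numbers for each gene in each library, that the authors did not normalize, per the file headers. The authors' own log2 CPM and log2 fold changes, p-values included, stand in the same deposited table and were not used for the results.

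Tests used edgeR 4.0.16 (R 4.3.3) on these counts (quasi-likelihood test, two-sided, TMM factors 0.942 to 1.02, 1 coefficient per group, 8 residual degrees of freedom), and filterByExpr removed 0 of 13715 genes. A gene was called at an adjusted p under 0.05, by the Benjamini-Hochberg method over the whole table. RPKM used the length column of the table. SE is the log2 fold change divided by the square root of F. The test was checked on simulated counts. Genes other than the members were named by rule: Stk11, Lyz2, 6 adaptor and phosphatase genes, up to 4 genes per list and comparison with the smallest adjusted p, cell type markers, and the genes closest to each member in log2 CPM. Clec4a4, named for its shared sequence, falls outside the rule. The members and lists were chosen with earlier results of these data known.

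Same-numbered cultures with and without IL-4 correlated in their deviations from the group means over 8126 genes, at 0.551, 0.579 and 0.518 in KO and at 0.229, 0.491 and 0.406 in WT, so the numbers pair these libraries within a genotype. The labels give the numbers without saying what they mark. The fit described above leaves this pairing out, and fits with the replicate block are given where they change a call. The alternatives were other scaling, filters, tools (DESeq2 1.42.0, limma 3.58.1) and sample sets, 23 in all. Totals of 30651627 to 39136822 counts per library put the members between 194 and 58312 reads, with the fewest for Clec4e in every library.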

Additional observations from a re-analysis of the deposited data

Results flagged for a closer look

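The response of Clec7a to IL-4 differed between the genotypes by a test of the difference itself. It was 2.14 on the log2 scale in KO and 1.34 in WT, a difference of 0.80 (SE 0.12, edgeR adjusted p = 0.0148; 1.6e-06 to 0.0874 over the alternatives). All KO IL-4 libraries lay above all WT IL-4 libraries, and all KO mock libraries below all WT mock libraries.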

How the results depend on the processing

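The count of members called stayed within 1.5 times under every alternative for KO against WT and for IL-4 against mock. For the difference of the responses 1 member was called, with 0 to 2 when 1 library was left out, 0 without both KO 2 libraries, 4 with DESeq2, 6 with the replicate block and 4 with the block and length correction. Over all genes this difference gave 101 calls, with 0 to 102 when 1 library was left out, 65 with library size alone, 0 without both KO 2 libraries, 742 with DESeq2, 1596 with the block and 884 with the block and length correction. The counts of 0 are from edgeR, without both KO 2 libraries and without KO IL-4 library 1, where 2292 and 2321 genes had an unadjusted p under 0.05. All genes called between KO and WT with IL-4 numbered 2579, with 1658 to 2686 when 1 library was left out (1658 without WT IL-4 library 1), 1596 without both KO 2 libraries and 1670 with a block on the number shared by KO and WT. Same-numbered KO and WT libraries correlated at -0.319 to 0.175, so those numbers are not taken as pairs. The cause of these changes was not tested.

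The values that changed sign were not called with all 12 libraries and no replicate block. With 1 library left out, Clec4n with IL-4 in WT ran from -0.2123 to 0.0404 and Clec4e with IL-4 in KO from -0.0804 to 0.2348. In the same fits the KO against WT value in mock ran from -0.1442 to 0.0036 for Fcer1g and from -0.1342 to 0.0993 for Syk. IL-4 in WT ran from -0.0505 to 0.1115 for Tyrobp and from -0.1429 to 0.0391 for Syk. The difference of the responses ran from -0.0008 to 0.0645 for Ptpn6, from -0.0668 to 0.2989 for Card9 and from -0.1545 to 0.0401 for Fcer1g. With length correction, KO against WT in mock was -0.0611 for Tyrobp and 0.1871 for Syk, IL-4 against mock was -0.0388 for Syk in KO and -0.0719 for Tyrobp in WT, and the difference for Fcer1g was 0.159. With the replicate block and length correction the last 3 were -0.0395, -0.0708 and 0.16. Without both KO 2 libraries Fcer1g in mock was 0.0185 and the Ptpn6 difference -0.0023.

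Over all genes, gene length correlated with the fold change of KO over WT in mock (Spearman rho -0.294) and with IL-4 (-0.051), with that of IL-4 over mock in KO (0.172) and WT (-0.105), and with the difference of the responses (0.328), and the length correction ended none of the members' calls but that of Clec4n with IL-4 in KO (-0.54, adjusted p = 0.0919; 2.24e-05 to 0.141 over the alternatives). That call was also lost with library size alone (-0.63), DESeq2 (-0.68) and a fit of the 6 libraries alone (-0.67). DESeq2 called Clec4a1 (-0.61), Clec4a2 (-0.76) and Clec4a3 (-0.43) for the difference of the responses, besides Clec7a. Counts are lowest for Clec4e (194 to 516 reads), Clec4a1 in WT mock (268 to 371) and Clec4n in WT (403 to 586).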
